A study of Arabidopsis thaliana with 30 samples.

Results

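The 6 genes described here are the class A heat shock factor genes of Arabidopsis thaliana from HSFA4 to HSFA8, leaving out HSFA7: HSFA4A (AT4G18880), HSFA4C (AT5G45710), HSFA5 (AT4G13980), HSFA6A (AT5G43840), HSFA6B (AT3G22830) and HSFA8 (AT1G67970). They were chosen by gene family and locus, with earlier results of these data known. They are 6 of the 38088 genes of the deposited expression table and 6 of 21 heat shock factor genes in it. Messenger RNA was sequenced from whole 7-day-old seedlings, grown at 22 °C on agar plates under a 16 h day, in 30 libraries that form 10 groups of 3. The groups cross 5 genotypes with 2 treatments, and all of them share the same age, medium and growth temperature. Control seedlings had 0 min of heat, and heated seedlings were sampled with 85 min at 44 °C in a water bath, in sealed plates. Beside the wild type Col-0 stood the mutants ski2 dcl4 and ski2 dcl4 dcl2, the latter adding dcl2 to the same pair, smxl6 smxl7 smxl8, and a group labelled smxl4 smxl5. The helicase SKI2 unwinds RNA for decay by the exosome of the cytoplasm, and the Dicer proteins DCL4 and DCL2 make small RNAs from long double-stranded ones. Of the SMXL proteins, the SMXL6 to SMXL8 group holds back strigolactone responses, while SMXL4 and SMXL5 are needed in the phloem. The labels name the mutated genes but no allele, and they do not say whether the 3 libraries of a group came from separate plates or sowings, so a p-value here weighs a difference only against the spread among these libraries, and that spread may be technical.

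Heat shock factors are transcription factors that bind heat shock elements, which are inverted repeats of the letters GAA, in the promoters of chaperone genes. Class A members carry an activation motif, and in Arabidopsis the HSFA1 proteins start the heat response while HSFA2 and HSFA7A are themselves strongly induced by heat. The 6 genes here are known for other inputs: HSFA4A for oxidative stress and phosphorylation by the mitogen-activated protein kinases MPK3 and MPK6, HSFA5 as a binding partner that holds HSFA4 activity down, HSFA6A and HSFA6B for drought, salt and the hormone abscisic acid (ABA), and HSFA8 for entry into the nucleus under oxidative conditions. HSFA4C is also known as RHA1 (ROOT HANDEDNESS 1), from a mutant with altered root slanting and auxin responses.

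By RefSeq's annotation of assembly TAIR10.1, matched by locus, HSFA4A lies at chromosome 4, 10347479 to 10349902, and HSFA5 at chromosome 4, 8076903 to 8079408. On chromosome 5 are HSFA4C, from 18540665 to 18542864, and HSFA6A, from 17625353 to 17626487. HSFA6B lies at chromosome 3, 8078789 to 8081059, and HSFA8 at chromosome 1, 25484449 to 25486512. Values are given per gene over its transcript; 5 of the 6 genes have 1 annotated transcript with 2 or 3 exons, HSFA4C has 4, and none overlaps another annotated gene. Of the 250 bases before each gene's annotated start, those of HSFA6A and HSFA4A are shown, because HSFA6A had the widest range of levels and HSFA4A was the 1 gene of the 6 with a heat shock element match. The matches searched, on both strands, were GAANNTTC, TTCNNGAA and the core of the ABA response element, ACGTG. Capitals mark the match.
HSFA6A promoter, chr5:17626488-17626737, minus strand: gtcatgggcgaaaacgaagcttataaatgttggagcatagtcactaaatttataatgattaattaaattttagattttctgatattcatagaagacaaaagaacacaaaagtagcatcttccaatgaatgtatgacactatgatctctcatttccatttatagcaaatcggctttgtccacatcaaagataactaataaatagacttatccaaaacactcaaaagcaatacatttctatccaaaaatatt
HSFA4A promoter, chr4:10349903-10350152, minus strand: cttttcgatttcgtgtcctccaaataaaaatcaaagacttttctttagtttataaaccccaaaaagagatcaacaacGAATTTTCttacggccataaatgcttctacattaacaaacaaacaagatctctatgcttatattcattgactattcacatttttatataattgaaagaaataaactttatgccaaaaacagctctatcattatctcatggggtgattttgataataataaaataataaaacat
The HSFA4A match spans positions -173 to -166 from the start. ACGTG was in none of the 6 windows. Among 27443 promoters of that length, 16.1% held the heat shock element letters and 22.9% held ACGTG. The letters say nothing of whether a factor binds there, and matches outside these windows were not searched.

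Levels are FPKM, fragment counts scaled by transcript length and library size, a unit read from the values. Per library, 23996 to 25857 genes were above 0. The summed FPKM ran from 735524 to 904077 in control libraries and from 931940 to 1099790 in heated ones, with no overlap. An FPKM of 1 in a 1 kb transcript stood for an estimated 13.9 to 21.1 reads. All libraries carried green tissue transcripts (4 marker genes, sum 11192 to 25888 FPKM), with lower root (5 genes, 32.1 to 71.6), phloem (2 genes, 29.1 to 100.4) and xylem (2 genes, 3.76 to 8.15) markers. Seed markers (3 genes) summed to at most 8.99 FPKM, and CRA1 was listed at 0 in 3 libraries, OLEO1 in 4 and ABI3 in 1. The mutated genes were checked against the labels. The control mean of SKI2 was 6.41 FPKM in Col-0, 3.35 in ski2 dcl4 and 3.04 with dcl2 added, and that of DCL2 was 5.61 in Col-0 and 3.25 in ski2 dcl4 dcl2. DCL4 stood at 3.44 in ski2 dcl4, 2.84 with dcl2 added and 3.41 in Col-0. In smxl6 smxl7 smxl8, SMXL6 was at 3.13 (Col-0 5.44), SMXL8 at 0.429 (Col-0 1.00) and SMXL7 at 8.20 (Col-0 8.09). SMXL5 was higher, not lower, where the label reads smxl4 smxl5: its mean was 4.57 FPKM in Col-0 control and 15.0 there, and SMXL4 stood at 1.93 and 3.22. As no allele is named, these transcript levels do not settle the genotype. Those libraries are therefore called by their label below.

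Within their groups, replicate 2 of heated Col-0, replicate 2 of ski2 dcl4 control and replicate 3 of Col-0 control were each lowest in 5 of the 6 genes, and replicate 3 of ski2 dcl4 dcl2 control in 4. No other library was lowest in more than 3. How often each library was lowest of its group over all genes was not counted, so this describes the 6 genes only. Replicate 2 of heated Col-0 also differed from its group in the clock genes LHY (4.61 FPKM, against 0.987 and 1.15) and PRR5 (5.55, against 27.5 and 26.1), which were picked after their values were seen. Where leaving out 1 of these libraries ended a member's call, the value without it is given beside the result. Markers of tissues moved with the groups as well. With heat, all 4 green tissue genes rose and 3 of the 5 root genes fell in each genotype, where 25.8% to 32% of all genes rose and 23.6% to 27.3% fell, with root sums of 49.5 to 71.6 FPKM in control libraries and 32.1 to 41.3 in heated ones. Both phloem genes were lower in libraries labelled smxl4 smxl5 in each treatment, where 14.8% of all genes were lower at control and 17.2% after heat, with control sums of 47.5 to 48.8 FPKM against 77.0 to 80.4 in Col-0. In ski2 dcl4 control, 3 of 4 green tissue genes and both xylem genes were lower than in Col-0 (sums of 11192 to 11552 against 13488 to 15863 FPKM, and 3.86 to 4.54 against 5.64 to 6.24), and the 1 seed marker that could be tested was higher (seed sums of 0.141 to 8.99 against 0.174 to 0.299 FPKM), where 17.1% of all genes were lower and 16.1% higher. In heated ski2 dcl4 all 4 green tissue genes (median log2 change -0.45) and both xylem genes (-0.53) were lower than in heated Col-0, where 17.2% of all genes were. In heated smxl6 smxl7 smxl8, 3 of the 4 green tissue genes were lower, where 12.1% of all genes were. The part of these markers in the results below was not tested.

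HSFA6A held the widest range of the 6. It was at 1.55 FPKM or less in all libraries of 8 groups, ski2 dcl4 dcl2 included, and at 29.3 or more in all libraries of both ski2 dcl4 groups. At control it measured 0.975, 1.04 and 0.310 FPKM in Col-0, and 72.7, 30.5 and 56.7 in ski2 dcl4. In ski2 dcl4 dcl2 it measured 1.51, 1.55 and 1.19. Every ski2 dcl4 control library lay far above every library of the other genotypes, with the lowest at 30.5 and the highest elsewhere at 1.55. The mean of 53.3 ± 21.3 FPKM (SD, n = 3) in ski2 dcl4 was 68.6 times the Col-0 mean of 0.777 ± 0.406. On the log2(FPKM + 1) scale the rise was 4.88 (SE 0.29, limma adjusted p = 2.06e-11), rank 11 from the top among 21531 genes tested. After heat, ski2 dcl4 held 29.3, 31.3 and 84.0 FPKM and Col-0 0.364, 0.211 and 0.335, the latter an estimated 5, 3 and 5 reads. Again the groups were wide apart, by a log2 change of 5.07 (SE 0.29, adjusted p = 5.93e-12), rank 15 from the top. Without replicate 2 of ski2 dcl4 control the control rise was 5.23, and without replicate 3 of Col-0 control it was 4.67. In seedlings counted whole, a change in the number of cells that hold a transcript and a change in its amount per cell cannot be told apart.

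Adding dcl2 to ski2 dcl4 lowered HSFA6A by 4.41 on the log2 scale at control (SE 0.29, limma adjusted p = 1.73e-10) and by 4.73 after heat (adjusted p = 2.96e-11). Without replicate 2 of ski2 dcl4 control the control change was -4.76. The residual level in ski2 dcl4 dcl2 control, 1.42 ± 0.20 FPKM, lay above that of every Col-0 library, yet its log2 change from Col-0 was only 0.47 (SE 0.29) and did not pass the test. No member was called between ski2 dcl4 dcl2 and Col-0 at control, where 1.66% of all genes tested were (1.49% higher, 0.172% lower), or after heat, where 5.93% were (2.94% higher, 2.98% lower). None of these 12 tests had an unadjusted p under 0.05 in limma, and the lowest adjusted p was 0.781 at control and 0.429 after heat. From lowest to highest mean, HSFA6A ran from 0.231 in heated smxl6 smxl7 smxl8 up to 0.777 in Col-0 control with overlap between every pair of neighbours. It then stepped without overlap to ski2 dcl4 dcl2 control (1.42) and again to heated ski2 dcl4 (48.2), which overlapped ski2 dcl4 control (53.3). HSFA6A reached the 1 FPKM of the filter on low values in 10 libraries, which were the 6 of ski2 dcl4, the 3 of ski2 dcl4 dcl2 control and 1 of Col-0 control.

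**Figure D1:**
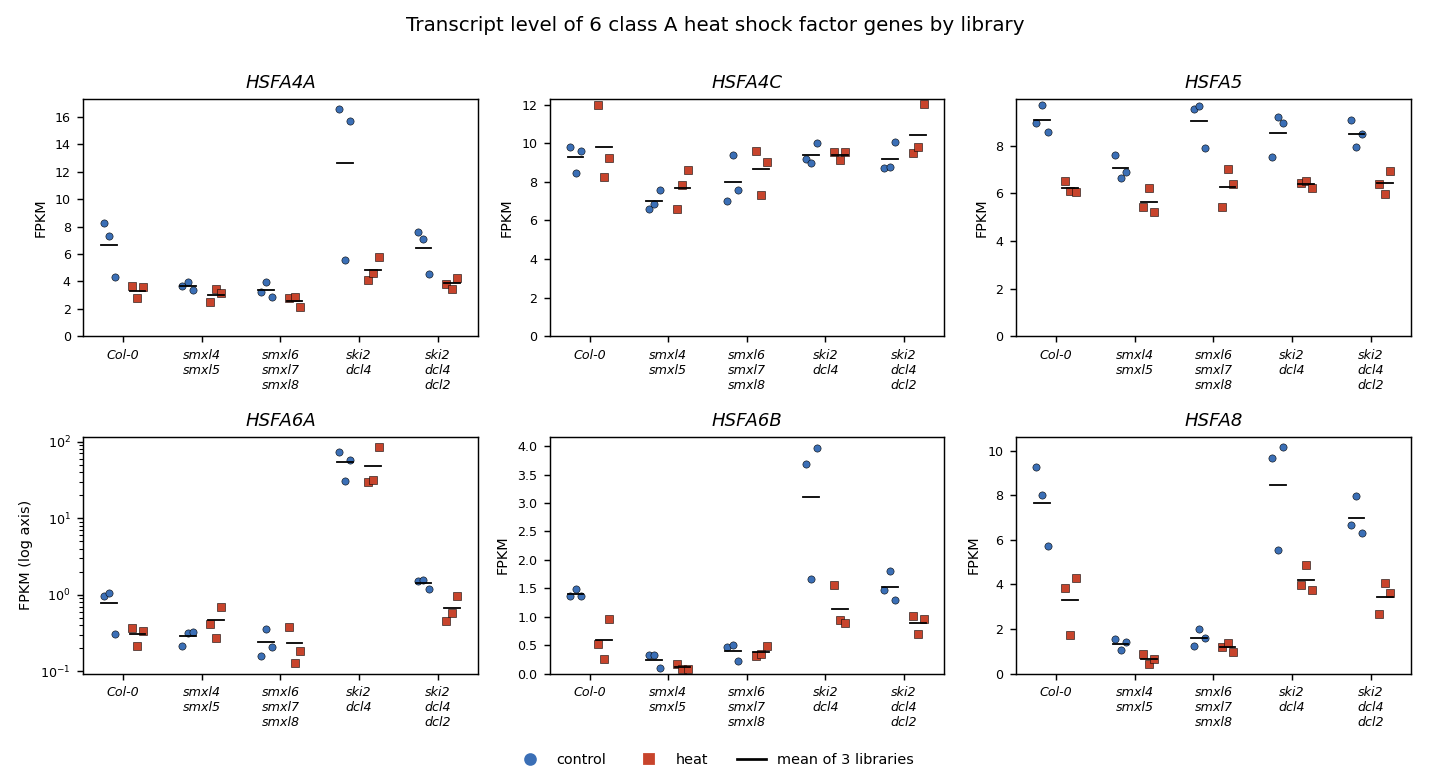
FPKM (vertical axis, logarithmic for HSFA6A and linear from 0 for the other genes) of each of the 6 genes in each library, by genotype; circles are control, squares are heat and bars are means of 3 libraries. HSFA6A is near 50 FPKM in ski2 dcl4 (means 53.3 and 48.2) and at or under 1.55 elsewhere, and HSFA8 is under 2 FPKM in all libraries labelled smxl4 smxl5 or smxl6 smxl7 smxl8.

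HSFA6A and HSFA6B belong to the ABA side of the family, so 10 ABA genes were set beside them: the transcription factors ABF1 to ABF4, DREB2A and MYB96, the ABA synthesis enzyme NCED3, the phosphatase ABI1, which brakes ABA signalling, and the ABA-induced RAB18 and RD29B. These 10 were chosen with earlier results of these data known, so their counts are a description and no independent support. Of the 10, 9 rose and none fell in ski2 dcl4 against Col-0 at control, where 33.3% of all genes were called (16.1% higher, 17.1% lower). Their median log2 change was 1.32, against 0 over all genes tested, and MYB96 (0.25, limma adjusted p = 0.557) was the 1 not called. RAB18, a dehydrin, measured 18.6, 19.9 and 13.0 FPKM in Col-0 control and 1667, 1092 and 1634 in ski2 dcl4 control. Its groups did not overlap, and it rose by 6.33 (adjusted p = 1.84e-12). RD29B rose by 6.76 (adjusted p = 2.22e-11), from 1.12, 0.759 and 0.600 FPKM to 256, 144 and 204. ABF2 rose by 1.31, ABF3 by 1.15 and ABI1 by 1.34. After heat 8 of the 10 were higher in ski2 dcl4 than in Col-0, where 39.5% of all genes were called, among them RAB18 (7.16) and RD29B (7.63). In ski2 dcl4 dcl2, 8 were lower than in ski2 dcl4 at control, where 26.4% of all genes were called, and 8 after heat, where 36.8% were, and none was called against Col-0 in either, where 1.66% of all genes were called at control and 5.93% after heat.

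**Figure D2:**
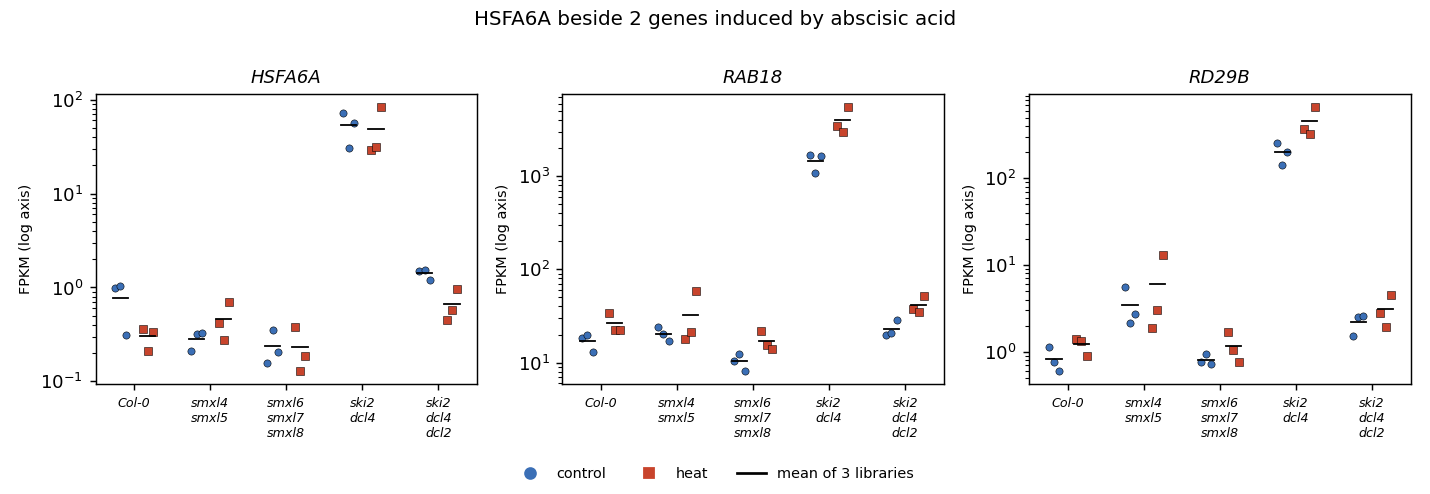
FPKM on logarithmic axes of HSFA6A, RAB18 and RD29B by library and genotype; circles are control, squares are heat and bars are means of 3 libraries. In all 3 panels the ski2 dcl4 libraries stand above all others, at 29.3 FPKM or more for HSFA6A.

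HSFA6B, which in Arabidopsis acts downstream of ABF factors and on DREB2A, was also highest in ski2 dcl4 control, over a smaller range of levels. At control it measured 1.37, 1.48 and 1.37 FPKM in Col-0, and 3.68, 1.67 and 3.98 in ski2 dcl4. In the libraries labelled smxl4 smxl5 it measured 0.317, 0.320 and 0.0974, and in smxl6 smxl7 smxl8 0.472, 0.495 and 0.218. Each ski2 dcl4 library was above and each library of both smxl genotypes was below every Col-0 library. HSFA6B rose by 0.72 on the log2 scale in ski2 dcl4 (SE 0.18, limma adjusted p = 0.00392), or by 1.00 without replicate 2 of ski2 dcl4 control, and the call was lost with the compared groups alone (adjusted p = 0.0575). It fell by 0.96 in libraries labelled smxl4 smxl5 (adjusted p = 0.000362) and by 0.79 in smxl6 smxl7 smxl8 (adjusted p = 0.00253), or by 2.21 and 1.66 with a pseudocount of 0.1. The Col-0 mean of 1.41 FPKM was 5.74 and 3.56 times theirs. These levels are near the floor of the measurement: in heated libraries labelled smxl4 smxl5 the gene was at 0.167, 0.0823 and 0.0841 FPKM, an estimated 2 to 4 reads each. There, HSFA6B differed from heated Col-0 by -0.49 (adjusted p = 0.0407), a call that was lost with no filter (0.0511), with upper-quartile rescaling (0.0504), without replicate 1 (adjusted p = 0.0839) or 3 (-0.32, adjusted p = 0.221) of heated Col-0, or without replicate 1 (0.0580), 2 (0.101) or 3 (0.0881) of the libraries so labelled. Without replicate 2 of heated Col-0 it was -0.64 (adjusted p = 0.0126), and with a pseudocount of 0.1 it was -1.57 (adjusted p = 0.00231). Adding dcl2 to ski2 dcl4 gave HSFA6B a change of -0.65 at control (adjusted p = 0.0100), though the groups overlapped. It was not called with a pseudocount of 0.1 (0.0854), with the compared groups alone (0.0939), or without replicate 1 (0.0724) or 3 (0.0773) of ski2 dcl4 control. Without replicate 2 of ski2 dcl4 control it was -0.94 (adjusted p = 0.000125). From 0.111 FPKM in heated libraries labelled smxl4 smxl5 to 3.11 in ski2 dcl4 control, every neighbouring pair of groups overlapped.

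At control, 3 of the 6 genes were called higher in ski2 dcl4 than in Col-0 (HSFA6A, HSFA4A and HSFA6B) and none lower, where 33.3% of all genes were called (16.1% higher, 17.1% lower). After heat HSFA6A alone of the 6 was called, and higher, where 39.5% of all genes were called (22.3% higher, 17.2% lower). HSFA6B then stood at 0.44 (limma adjusted p = 0.0582). It passed without replicate 3 of heated Col-0 (0.61, adjusted p = 0.0166), with a pseudocount of 0.1 (0.96, adjusted p = 0.0468) and with upper-quartile rescaling (adjusted p = 0.0479), and was at 0.29 (adjusted p = 0.267) without replicate 2 of heated Col-0. HSFA8 did not pass the test in either treatment. Between ski2 dcl4 dcl2 and ski2 dcl4, 3 members were lower at control (HSFA4A, HSFA6A and HSFA6B), where 26.4% of genes were called (15.2% higher, 11.2% lower). HSFA6A alone was lower after heat, where 36.8% were called (15.6% higher, 21.2% lower). These comparisons, like those of every genotype with Col-0, share their Col-0 or ski2 dcl4 libraries.

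HSFA8 was the 1 member of the 6 called lower than in Col-0 in both smxl genotypes and both treatments. At control it measured 9.30, 8.01 and 5.73 FPKM in Col-0. In the libraries labelled smxl4 smxl5 it measured 1.55, 1.07 and 1.41, and in smxl6 smxl7 smxl8 it measured 1.25, 1.98 and 1.60. The lowest Col-0 library was above every library of both smxl groups. The Col-0 mean of 7.68 ± 1.81 FPKM (n = 3) was 5.73 times that of the libraries labelled smxl4 smxl5 (1.34 ± 0.25). HSFA8 fell by 1.87 on the log2 scale there (SE 0.22, limma adjusted p = 8.32e-07) and by 1.72 in smxl6 smxl7 smxl8 (SE 0.22, adjusted p = 5.21e-06). After heat it measured 3.84, 1.72 and 4.29 FPKM in Col-0, against 0.865, 0.446 and 0.646 in libraries labelled smxl4 smxl5 and 1.20, 1.37 and 0.967 in smxl6 smxl7 smxl8. Again no library of either smxl group reached the Col-0 range, even though replicate 2 of Col-0 lay well under the other pair. The log2 changes after heat were -1.32 (adjusted p = 6.61e-05) and -0.92 (adjusted p = 0.00403), or -1.62 and -1.22 without replicate 2 of heated Col-0. With a pseudocount of 0.1 the former was -2.11. The latter comparison was not called with the compared groups alone (adjusted p = 0.0551). Without replicate 3 of Col-0 control, the control changes were -2.05 and -1.89. Both ski2 genotypes were at 6.98 to 8.46 FPKM on average at control, in the range of Col-0. In the order of group means HSFA8 had 2 steps without overlap, between heated libraries labelled smxl4 smxl5 (0.652) and heated smxl6 smxl7 smxl8 (1.18), and between heated ski2 dcl4 (4.20) and ski2 dcl4 dcl2 control (6.98).

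The libraries of both smxl genotypes differed from Col-0 in the clock genes too. LHY measured 0.889, 1.08 and 1.08 FPKM in Col-0 control and 19.8, 19.0 and 18.9 in libraries labelled smxl4 smxl5. The smxl6 smxl7 smxl8 control libraries measured 7.19, 7.92 and 8.28. PRR5 went the other way, from 33.8, 33.7 and 27.6 FPKM in Col-0 to 2.95, 3.15 and 3.14 and to 4.83, 4.31 and 4.42. The part of this difference in the results on HSFA8, HSFA6B and every other gene compared between these groups was not tested. Between these groups the genotype and the clock gene levels cannot be told apart. Replicate 2 of heated Col-0, whose LHY and PRR5 also differed from its group, held HSFA8 at 1.72 FPKM (3.84 and 4.29 in its group). Its HSFA6B was at 0.254 FPKM (0.527 and 0.966), and it was also lowest of its group in HSFA4A, HSFA4C and HSFA6A. That is 1 library, and what set it apart was not tested.

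Of the 6 genes, 4 were lower in libraries labelled smxl4 smxl5 than in Col-0 at control (HSFA8, HSFA6B, HSFA4C and HSFA5), where 30.1% of all genes were called (15.3% higher, 14.8% lower). The median log2 change of the 6 was -0.56, against 0.01 over all genes tested. In smxl6 smxl7 smxl8, 3 were lower (HSFA8, HSFA6B and HSFA4A), where 26.6% were called (13.4% higher, 13.2% lower), with a median of -0.64 against 0.01. After heat, 3 were lower in libraries labelled smxl4 smxl5 (HSFA8, HSFA6B and HSFA4C; 36.3% of all genes called, 19.1% higher and 17.2% lower). In heated smxl6 smxl7 smxl8, HSFA8 alone was lower (23.8% called, 11.7% higher and 12.1% lower). No member rose in either genotype. Among the 10 ABA genes, 6 were lower and 1 higher (RD29B, by 1.22) in libraries labelled smxl4 smxl5 at control, and 5 were lower in smxl6 smxl7 smxl8. ABF1 fell in both, by 1.70 (limma adjusted p = 2.27e-07) and 1.51 (adjusted p = 2.56e-06), and so did NCED3, DREB2A, ABI1 and MYB96.

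**Figure D3:**
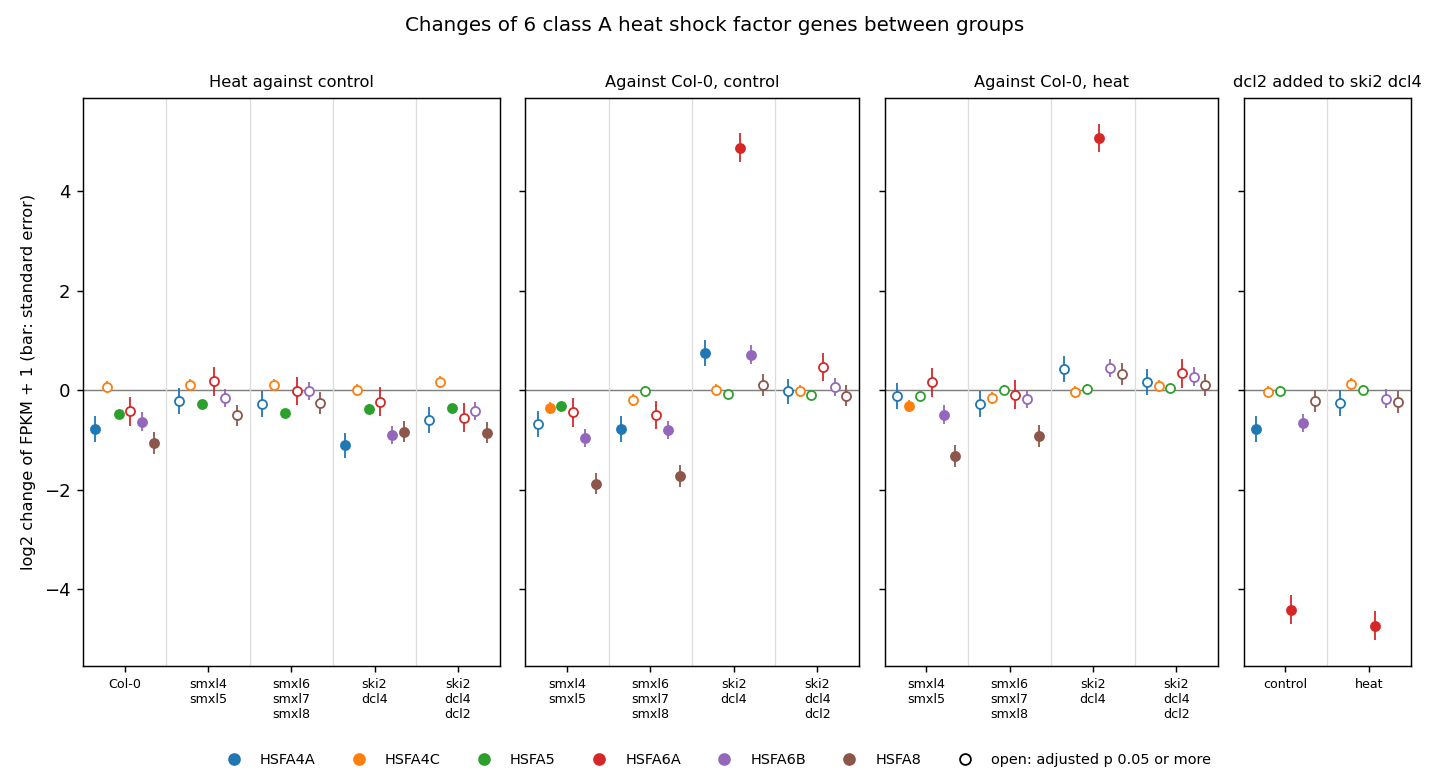
Log2 change of FPKM + 1 with its standard error (vertical axis) of the 6 genes between groups, by panel and genotype; filled points have an adjusted p under 0.05 and open points do not. HSFA6A stands at 4.88 and 5.07 in ski2 dcl4 against Col-0 and at -4.41 and -4.73 where dcl2 is added. In the panels against Col-0, HSFA8 is the lowest of the 6 in both smxl genotypes.

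HSFA4A, whose protein is activated by MPK3 and MPK6, varied widely between libraries of 1 group. At control it measured 8.25, 7.30 and 4.29 FPKM in Col-0, and 16.6, 5.58 and 15.7 in ski2 dcl4. The ski2 dcl4 libraries spread over a range that held the 2 higher Col-0 libraries, so the groups overlapped. The rise of 0.75 on the log2 scale (SE 0.26, limma adjusted p = 0.0290) was 1.21 without replicate 2 of ski2 dcl4 control. The call was lost without replicate 3 of Col-0 control (adjusted p = 0.188), without replicate 1 (0.196) or 3 (0.162) of ski2 dcl4 control, and in a fit of the compared groups alone (0.205). In smxl6 smxl7 smxl8 control HSFA4A measured 3.22, 3.97 and 2.87 FPKM, below all Col-0 libraries, a log2 change of -0.78 (adjusted p = 0.0293). That call, too, was lost without replicate 1 (adjusted p = 0.136) or 2 (0.103) of Col-0 control, without replicate 1 (0.0716) or 3 (0.0870) of smxl6 smxl7 smxl8 control, or with the compared groups alone (0.0562). Without replicate 3 of Col-0 control it was -1.02 (adjusted p = 0.00965). In libraries labelled smxl4 smxl5 the values were 3.64, 3.97 and 3.35 FPKM and the change of -0.67 did not pass (adjusted p = 0.0526), though it did without replicate 3 of Col-0 control (-0.92, adjusted p = 0.0154), with a pseudocount of 0.1 (0.0466) and with the compared groups alone (0.0329). Adding dcl2 to ski2 dcl4 gave -0.77 at control (adjusted p = 0.0297), with overlapping groups, and -1.23 without replicate 2 of ski2 dcl4 control. The call was lost with the compared groups alone (0.196), without replicate 1 (0.204) or 3 (0.166) of ski2 dcl4 control or replicate 3 (0.158) of ski2 dcl4 dcl2 control. Each pair of neighbours in the order of the 10 group means overlapped, from 2.58 FPKM in heated smxl6 smxl7 smxl8 to 12.6 in ski2 dcl4 control.

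A list of 9 genes, also chosen with earlier results of these data known, held kinases that act on HSFA4A and genes reported downstream of it. At control, 3 of the 9 rose in ski2 dcl4, where 16.1% of all genes were called higher and 17.1% lower: HSP17.6A (0.98), which encodes a small chaperone, and the zinc finger genes ZAT12 (1.51) and ZAT6 (1.42), which respond to oxidative stress. APX1, a cytosolic ascorbate peroxidase, fell by 0.58. The median log2 change of the list was -0.02, against 0 over all genes. ZAT12 measured 50.5, 9.38 and 40.6 FPKM in ski2 dcl4 control and 13.5, 7.04 and 7.25 in Col-0 control, so that the same replicate 2 was low as for HSFA4A. These groups overlapped, and whether the calls of these 9 genes hold without 1 library was not tested. At control in libraries labelled smxl4 smxl5 (15.3% of all genes higher, 14.8% lower), MPK3 (-1.91), ZAT12 (-1.91) and ZAT6 (-1.21) were lower and none was higher. In smxl6 smxl7 smxl8 (13.4% higher, 13.2% lower) the same 3 genes (-1.57, -1.70 and -1.16) and CRK13 (-0.69) were lower, and MPK4 was higher (0.21). MPK6 was not called in these comparisons, nor was any of the 9 between ski2 dcl4 dcl2 and Col-0, where 1.66% of all genes were called at control and 5.93% after heat.

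Heat lowered members and raised none of them in any genotype. In Col-0, 4 of the 6 fell, where 57.2% of all genes tested were called (29.9% higher, 27.3% lower). The median log2 change of the 6 was -0.56, and that of all genes 0.01. HSFA8 went from 9.30, 8.01 and 5.73 FPKM to 3.84, 1.72 and 4.29, with no overlap. It fell by 1.05 on the log2 scale (SE 0.22, limma adjusted p = 0.000231), or by 0.76 without replicate 2 of heated Col-0. HSFA5 went from 8.94, 9.73 and 8.58 FPKM to 6.52, 6.08 and 6.03. Its groups were tight and apart, and it fell by 0.48 (SE 0.09, adjusted p = 6.20e-05). HSFA6B fell by 0.63 (adjusted p = 0.00521), from 1.37, 1.48 and 1.37 FPKM to 0.527, 0.254 and 0.966. Without the lowest of these heated libraries it fell by 0.47 (adjusted p = 0.0462), and with a pseudocount of 0.1 by 1.28. HSFA4A went from 8.25, 7.30 and 4.29 FPKM to 3.66, 2.75 and 3.57, also without overlap, a fall of 0.78 (adjusted p = 0.0127). That call was lost without replicate 2 of heated Col-0 (adjusted p = 0.0546) or replicate 1 (0.0723) or 2 (0.0502) of Col-0 control. Without replicate 3 of Col-0 control the falls were 1.03 for HSFA4A and 1.23 for HSFA8. HSFA4C (0.06, adjusted p = 0.703) and HSFA6A (-0.42, adjusted p = 0.221) did not pass the test, though HSFA6A did with a pseudocount of 0.1 (adjusted p = 0.0495).

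HSFA5 was the member that fell with heat in all 5 genotypes. At control it measured 7.62, 6.62 and 6.91 FPKM in libraries labelled smxl4 smxl5, and 5.44, 6.24 and 5.23 after heat. In smxl6 smxl7 smxl8 it went from 9.53, 9.67 and 7.91 to 5.42, 7.02 and 6.40. In ski2 dcl4 it went from 7.52, 9.19 and 8.95 to 6.42, 6.52 and 6.20, and in ski2 dcl4 dcl2 from 9.07, 7.94 and 8.49 to 6.39, 5.99 and 6.93. In each genotype the lowest control library was above the highest heated one. The fall was 0.46 in smxl6 smxl7 smxl8 (limma adjusted p = 0.000120), 0.37 for ski2 dcl4 (adjusted p = 0.00114) and 0.35 with dcl2 added (adjusted p = 0.00189). For libraries labelled smxl4 smxl5 it was 0.28 (adjusted p = 0.00987), which was not called without replicate 1 of the control libraries so labelled (adjusted p = 0.0572). At control HSFA5 was lower in libraries labelled smxl4 smxl5 than in Col-0, with a change of -0.32 (SE 0.09, adjusted p = 0.00734). Between genotypes it was called nowhere else. Its group means formed 2 blocks, from 5.64 to 7.05 FPKM (the heated groups and control libraries labelled smxl4 smxl5) and from 8.50 to 9.08 (the other control groups). Neighbours overlapped within each block, while control libraries labelled smxl4 smxl5 and ski2 dcl4 dcl2 control, which met between the blocks, did not. By library the blocks overlapped: ski2 dcl4 control went down to 7.52 FPKM and control libraries labelled smxl4 smxl5 up to 7.62.

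HSFA8 also fell with heat in ski2 dcl4, by 0.83 (limma adjusted p = 0.00237), and in ski2 dcl4 dcl2, by 0.85 (adjusted p = 0.00234). In ski2 dcl4 it went from 9.70, 5.53 and 10.2 FPKM to 3.96, 4.87 and 3.76, and in ski2 dcl4 dcl2 from 6.66, 7.99 and 6.29 to 2.67, 4.08 and 3.60. Neither pair of groups overlapped. In libraries labelled smxl4 smxl5 the change was -0.50 (adjusted p = 0.0541), though all heated libraries were below all control ones. It passed with a pseudocount of 0.1 (-0.96, adjusted p = 0.00720), with upper-quartile rescaling (0.0296), with the compared groups alone (0.0182) and without replicate 1 of the heated libraries (0.0480). HSFA4A in ski2 dcl4 fell by 1.11 (adjusted p = 0.000895), to 4.10, 4.58 and 5.78 FPKM, where the highest heated library was just above the lowest control one. HSFA6B fell there by 0.91 (adjusted p = 0.000207), to 1.56, 0.949 and 0.893. Without replicate 2 of ski2 dcl4 control, the falls in ski2 dcl4 were 1.57 for HSFA4A, 1.19 for HSFA6B and 1.08 for HSFA8. In ski2 dcl4 dcl2, HSFA4A (-0.59, adjusted p = 0.0617) and HSFA6B (-0.42, adjusted p = 0.0615) did not pass. Both passed with upper-quartile rescaling (0.0420 and 0.0421) and with the compared groups alone (0.0189 and 0.0200), and HSFA4A also without replicate 3 of the control libraries (-0.79, adjusted p = 0.0261). HSFA6A in ski2 dcl4 dcl2 (-0.55, adjusted p = 0.118) passed with a pseudocount of 0.1 (-1.04, adjusted p = 0.0479) and with the compared groups alone (0.0126). HSFA6A in ski2 dcl4 changed by -0.23 (adjusted p = 0.524), but by -0.71 (adjusted p = 0.0149) without replicate 3 of the heated libraries, which held 84.0 FPKM.

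Counted by genotype, 1 member fell with heat in libraries labelled smxl4 smxl5 (53.9% of all genes called, 29.9% higher and 24% lower) and 1 in smxl6 smxl7 smxl8 (52.9% called, 28.7% higher and 24.1% lower). In ski2 dcl4, 4 fell (55.6% called, 32% higher and 23.6% lower), and in ski2 dcl4 dcl2, 2 (50.1% called, 25.8% higher and 24.3% lower). Whether heat acted differently in a mutant and in Col-0 was tested directly. Of 24 such tests of the 6 genes in limma, none was called, 2 had an unadjusted p under 0.05 (HSFA6B and HSFA8 in smxl6 smxl7 smxl8), and the lowest adjusted p was 0.125. HSFA6B is near the floor in that genotype (means 0.395 and 0.378 FPKM). Its difference of 0.62 there ran from 0.46 to 1.27 over the alternatives (limma adjusted p 0.0717 to 0.306). That of HSFA8, 0.80, ran from 0.50 to 0.98 (0.0627 to 0.282). Over all genes, 2.08% were called for the label smxl4 smxl5, 5.29% for smxl6 smxl7 smxl8, 0.372% for ski2 dcl4 and 0.0464% for ski2 dcl4 dcl2. A heat effect that passed in one genotype and not in another is therefore not shown to differ between them.

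HSFA4C lay between 6.58 and 12.0 FPKM in all 30 libraries and was called with heat in no genotype. At control it measured 9.80, 8.46 and 9.61 FPKM in Col-0, and 6.58, 6.82 and 7.59 in libraries labelled smxl4 smxl5. The groups did not overlap, and the change was -0.36 (SE 0.12, limma adjusted p = 0.0254). It was not called without replicate 1 (adjusted p = 0.0907) or 3 (0.0721) of Col-0 control or replicate 1 (0.0877) or 2 (0.0701) of the libraries so labelled. After heat the change was -0.31 (adjusted p = 0.0471), with 12.0, 8.24 and 9.24 FPKM in Col-0 and 6.58, 7.84 and 8.60 in libraries labelled smxl4 smxl5, which overlapped. It was lost without replicate 1 (-0.17, adjusted p = 0.322) or 3 (0.0598) of heated Col-0, without replicate 1 (0.213) or 2 (0.0813) of those so labelled, with no filter on low values (0.0673), or with the compared groups alone (0.178). Without replicate 2 of heated Col-0 it was -0.42 (adjusted p = 0.0133). HSFA4C was called in no other comparison, and every pair of neighbours among its group means, from 7.00 to 10.4 FPKM, overlapped.

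Because HSFA5 protein restrains HSFA4 factors, the transcript ratio of HSFA4A to HSFA5 was computed in each library, as log2 of FPKM to FPKM. It was -0.51 ± 0.45 (SD, n = 3) in Col-0 control and -0.91 ± 0.21 in heated Col-0. Both genes fell with heat, and the ranges of the ratio overlapped. In smxl6 smxl7 smxl8 it was -1.44 ± 0.14 at control and -1.28 ± 0.29 after heat, and in libraries labelled smxl4 smxl5 -0.95 ± 0.18 and -0.92 ± 0.21. It was above 0 in 2 libraries of the 30, both of ski2 dcl4 control (1.14 and 0.81, with -0.72 in replicate 2), and the mean there was 0.41 ± 0.99. In ski2 dcl4 dcl2 it was -0.44 ± 0.40 at control and -0.74 ± 0.05 after heat. No test was made of these ratios.

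The 6 genes together summed to 34.8 ± 4.5 FPKM (SD, n = 3) in Col-0 control and 23.5 ± 3.9 in heated Col-0. The heat shock factor genes as a whole, all 21, went from 127 to 730 FPKM, so the share of the 6 in that sum fell from 27.5 ± 0.8% to 3.51 ± 1.40%. HSFA2 made up most of the difference, at 0.303, 0.426 and 0.535 FPKM in Col-0 control and 256, 509 and 291 after heat. In ski2 dcl4 control the 6 summed to 95.4 ± 30.3 FPKM and took 40.5 ± 3.1% of the whole, with HSFA6A at 53.3 FPKM as the largest member. In libraries labelled smxl4 smxl5 they summed to 19.6 FPKM (20.7% of the whole) at control, and in smxl6 smxl7 smxl8 to 22.6 FPKM (22.7%). The control shares of both smxl genotypes lay below, and those of ski2 dcl4 above, every Col-0 control library (26.6% to 28.1%).

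**Figure D4:**
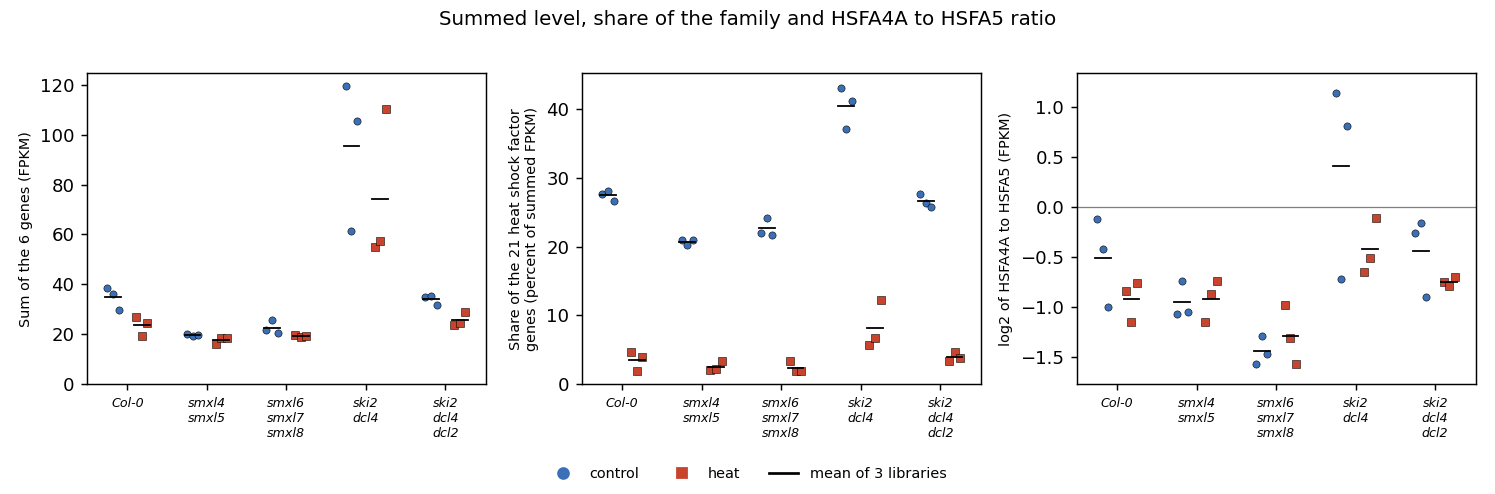
Summed FPKM of the 6 genes (left), their percent share of the summed FPKM of 21 heat shock factor genes (middle) and log2 ratio of HSFA4A to HSFA5 (right) by library and genotype; circles are control, squares are heat and bars are means of 3 libraries. The share is 20.2% to 43.2% in control libraries and at most 12.3% in heated ones, and the ratio is above 0 in 2 ski2 dcl4 control libraries.

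Across the 10 group means on the log2(FPKM + 1) scale, the profiles of HSFA4A and HSFA6B had a Pearson correlation of 0.945 and those of HSFA6B and HSFA8 of 0.941, while HSFA4C and HSFA5 were at 0.041. These are descriptions over 10 points that share genotypes and treatments. By the same measure, among 15975 genes with a highest group mean of at least 5 FPKM, the genes nearest HSFA6A were AT5G04380 and the inositol transporter gene INT2 (both 0.995), and ABI2 (0.990), a phosphatase that brakes ABA signalling. HSFA6A had group means of 48.2 and 53.3 FPKM in ski2 dcl4 and at most 1.42 elsewhere. Its correlations therefore rest mainly on both ski2 dcl4 groups. Nearest HSFA8 were the defensin-like gene LCR69, AT5G23575 and AT4G30650 (0.991 to 0.992). Nearest HSFA4A were AT3G10930 (0.981), the cold-response factor gene DREB1A (0.980) and the zinc finger gene ZF2 (0.978). HSFA6B, itself under 5 FPKM in every group mean and so compared with 15976 genes, was nearest to AT3G52800 (0.984). Next were MYC2 (0.981), a jasmonate transcription factor, and CZF1 (0.981). HSFA5 was nearest to AT5G67460, AT3G47540 and AT2G47560 (0.981 to 0.983), and HSFA4C to RSH2, FBA5 and HSPRO2 (0.972 to 0.976).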

How the data were processed

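The deposited table holds 1 value per gene and library, made by the authors, and was read as FPKM. The unit was inferred: values are not whole, and across 2880 genes, not independent of each other, a gene's smallest value was lower the longer its transcript (Spearman's rho -0.972). The submitters' processing notes name Bowtie and no version. Counter, annotation and build were not given in the sources used here. The depth is unknown apart from the estimate made from these steps, and no count test was run. Identifiers matched RefSeq TAIR10.1 for 37792 of 38088 genes (99.2%).

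Values were transformed as log2(FPKM + 1), which understates changes of low genes. The filter kept 21531 genes, all 6 members among them, that reached 1 FPKM in 3 libraries or more. limma 3.58.1 in R 4.3.3 fitted 1 mean per group to all 30 libraries, with an intensity trend and Benjamini-Hochberg adjustment over all genes of each of 19 comparisons. A gene was called below an adjusted p of 0.05. The procedure was also run on simulated data for heat in Col-0 with 200 genes changed. As 12317 were called there in the real data, that run does not measure the error rate here. Every adjusted p in the text is limma's. Samples were grouped by their labels. Alternatives were a pseudocount of 0.1, no filter, 2 rescalings, the compared groups alone, a replicate block, no intensity trend, and leaving out each library. The 6 members were named in every comparison, and from the other lists genes that changed where a member did, or that changed most or least with heat in Col-0. The members and lists were chosen with earlier results of these data known.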

Additional observations from a re-analysis of the deposited data

How the results depend on the processing

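Of 114 single-gene results, 31 were called. Counting each result once per alternative, calls held in 362 cases and were lost in 40, results not called stayed so in 1187 and became called in 20, and no called direction turned. HSFA6A stayed called in its 4 comparisons under all 13 alternatives of each. Same-numbered libraries did not deviate together (median correlations -0.01, 0.00 and -0.02), and with the replicate number as a block no call of a member changed (4 called with heat in Col-0, for example). Upper-quartile rescaling moved the median of all genes by -0.106 in the heat effect of smxl4 smxl5 and by -0.115 in that of ski2 dcl4, and turned the split of higher and lower genes with heat in Col-0 from 6437 and 5880 to 5140 and 7003. Genotypes are named by label. With heat, the split went from 6438 and 5158 to 4356 and 6548 in smxl4 smxl5, from 6881 and 5084 to 4881 and 6625 in ski2 dcl4, from 6182 and 5198 to 4968 and 5956 in smxl6 smxl7 smxl8, and from 5551 and 5233 to 4713 and 5942 in ski2 dcl4 dcl2. Against Col-0 it went from 3476 and 3690 to 5346 and 2526 in ski2 dcl4 control, from 4798 and 3713 to 5903 and 2952 in heated ski2 dcl4, from 2518 and 2610 to 2906 and 2170 in heated smxl6 smxl7 smxl8, and from 634 and 642 to 1550 and 144 in heated ski2 dcl4 dcl2. For dcl2 added after heat it went from 3369 and 4555 to 4073 and 3718, and for the interactions from 156 and 292 to 141 and 555 in smxl4 smxl5 and from 50 and 30 to 27 and 40 in ski2 dcl4.

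With the compared groups alone, members called were 2 with heat in smxl4 smxl5 and 5 with heat in ski2 dcl4 dcl2. There, 53.9% and 50.1% of all genes were called as reported. Members called were 1 in ski2 dcl4 control (33.3% of all genes as reported) and 1 for dcl2 added at control (26.4%). They were 1 in heated smxl4 smxl5 and 0 in heated smxl6 smxl7 smxl8. Genes called were then 3039 in smxl6 smxl7 smxl8 control (5725 as reported), 4067 in heated smxl4 smxl5 (7819), 2452 in heated smxl6 smxl7 smxl8 (5128), 5282 in heated ski2 dcl4 (8511) and 288 in heated ski2 dcl4 dcl2 (1276). For the interactions they were 29 in ski2 dcl4 (80), 112 in smxl6 smxl7 smxl8 (1140) and 232 in smxl4 smxl5 (448). With upper-quartile rescaling, members called were 2 with heat in smxl4 smxl5, 4 with heat in ski2 dcl4 dcl2 and 2 in heated ski2 dcl4. The numbers of all genes higher and lower there under this rescaling are given above. The smxl4 smxl5 interaction then had 696 genes. A pseudocount of 0.1 gave 2 members with heat in smxl4 smxl5 and 2 in heated ski2 dcl4. There, 53.9% and 39.5% of all genes were called as reported. No filter gave 1 member in heated smxl4 smxl5, where 36.3% of all genes were called as reported. It gave 705 genes in ski2 dcl4 dcl2 control (358) and 18 in its interaction (10). The cause of these differences was not tested.

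Leaving out 1 library gave 0 to 2 members with heat in smxl4 smxl5, where 10463 to 11246 of all genes were called. It gave 1 to 3 members in heated smxl4 smxl5 (5499 to 8128 genes) and 1 to 2 in heated ski2 dcl4 (6980 to 7860 genes). For dcl2 added at control it gave 1 to 3 members. Genes called ran from 575 to 1529 in heated ski2 dcl4 dcl2, 3685 to 5728 for dcl2 added at control and 2937 to 5783 in heated smxl6 smxl7 smxl8. For interactions they ran from 45 to 250 in ski2 dcl4, 393 to 2255 in smxl6 smxl7 smxl8 and 152 to 754 in smxl4 smxl5. Over class A genes alone, the control share of the 6 was 49.7% in Col-0, 71.1% in ski2 dcl4, 47.8% in ski2 dcl4 dcl2, 41.7% in smxl6 smxl7 smxl8 and 38.2% in smxl4 smxl5, and 4.75% in heated ski2 dcl4 dcl2. The ratio of HSFA4A to HSFA5 on FPKM + 1 was -1.21 in smxl6 smxl7 smxl8 control and -0.62 in heated ski2 dcl4 dcl2. Low levels limit HSFA6A outside ski2 dcl4: with a pseudocount of 0.1, HSFA6A passed with heat in Col-0 (adjusted p = 0.0495), with heat in ski2 dcl4 dcl2 (0.0479) and in smxl6 smxl7 smxl8 control (-1.27, adjusted p = 0.0311; -0.50 as reported).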

Other observations

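Other heat shock factor genes set beside the 6 were 15, of which 13 were tested; HSFA9 was listed at 0 in all 30 libraries and HSFB3 did not pass the filter. In Col-0, heat raised 6 of the 13 and lowered 3, where 29.9% of all genes tested were higher and 27.3% lower. HSFA2 rose by 7.89 on the log2 scale, HSFA7A by 5.02 and HSFB1, a class B factor known as a repressor, by 1.95, while HSFB4 fell by 0.76. HSFC1, the single class C gene, fell with heat in Col-0 by 0.71 (limma adjusted p = 0.0227) and rose in ski2 dcl4 control by 1.14 (adjusted p = 0.00155). It measured 16.1, 12.7 and 8.22 FPKM in Col-0 control and 37.8, 15.0 and 36.3 in ski2 dcl4 control, where the middle replicate was again the low one. These groups overlapped. Single-gene results of the alternatives were taken for the 6 genes alone, so the HSFC1 calls were not tested in this way. Adding dcl2 lowered HSFC1 by 1.20 (adjusted p = 0.00138). Of the 13, 3 were higher and 1 lower in ski2 dcl4 control than in Col-0, where 16.1% of all genes were higher and 17.1% lower. With dcl2 added at control, 3 were lower and 1 higher, where 11.2% of all genes were lower and 15.2% higher.

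HSFB2A was lower in both smxl genotypes at control, by -1.45 in libraries labelled smxl4 smxl5 (limma adjusted p = 0.000370) and by -1.40 in smxl6 smxl7 smxl8 (adjusted p = 0.000684). Its levels were 16.6, 12.7 and 8.69 FPKM in Col-0 control, 4.19, 3.77 and 3.66 in the former and 3.72, 4.61 and 3.83 in the latter. The Col-0 libraries lay above all of these. Of the 13 other factors tested, 3 were lower and 1 higher in control libraries labelled smxl4 smxl5. There, 14.8% of all genes were lower and 15.3% higher. In smxl6 smxl7 smxl8 control 2 of the 13 were lower and 0 higher, where 13.2% of all genes were lower and 13.4% higher.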
